A study of Rattus norvegicus with 9 samples.

Results

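The endoplasmic reticulum (ER) chaperones and disulfide isomerases described here are 10 genes chosen by name from the 20645 genes of the table, namely Hspa5, Hsp90b1, Calr, Canx, Pdia3, Pdia4, Pdia6, Dnajb9, Dnajc3 and Sdf2l1. All 10 were in the table and passed the filter on low values, a mean of at least 1 FPKM (fragments scaled to transcript length and sequencing depth) over all libraries, which 12958 genes passed. The cells were INS-1E, a rat insulinoma line that is used as a model of the insulin-secreting beta cell, and all libraries came from this line. For 24 h the Control group received fatty acid-free bovine serum albumin (BSA), the PA group palmitic acid at 0.5 mM, and the PA + C3G group 0.5 mM palmitic acid together with cyanidin-3-O-glucoside (C3G), an anthocyanin, at 50 µM. Each group had 3 libraries of polyadenylated RNA, and no library analysed here came from cells given C3G without palmitic acid. In RNA from bulk cultures, a change in how many cells make a transcript and a change in the transcript per cell cannot be told apart.

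Proteins that enter the secretory pathway fold in the ER lumen. BiP, the HSP70 chaperone encoded by Hspa5, binds unfolded chains with the help of J-domain partners, and GRP94 (Hsp90b1) acts later as the HSP90 of this compartment. Calreticulin and calnexin hold proteins that carry N-glycans, while protein disulfide isomerases form and rearrange disulfide bonds. Beta cells fold large amounts of proinsulin, which has disulfide bonds, and the unfolded protein response, run by the sensors IRE1, PERK and ATF6, is known to raise the transcription of these folding genes when unfolded protein builds up.

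One known route to that transcription is the ER stress element (ERSE), a promoter motif made of CCAAT, 9 bases of any kind and CCACG, in which CCAAT is bound by NF-Y and CCACG by ATF6 or XBP1. Promoters were taken from RefSeq (build GRCr8, 250 bases before and 50 bases after each start site), where 8 of the 10 genes had an entry. Pdia3 and Pdia6 had none. An exact ERSE on either strand was found in 5 of these 8 promoters, against 21 of all 27456 promoters (0.0765%), 15 of the 8999 promoters of tested genes (0.167%) and 2 of the 40 promoters of other ER folding genes (5.0%). The element was first defined on promoters of genes of this kind, so the matches are a description and no independent finding. The 6 exact matches are shown so that these 5 promoters can be compared. Each is written on the strand where it reads as an ERSE, with the fixed letters in capitals.
Hspa5, 43 bases before the start: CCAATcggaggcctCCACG
Hsp90b1, 176 bases before the start: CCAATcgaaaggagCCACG
Hsp90b1, 72 bases before the start, opposite strand: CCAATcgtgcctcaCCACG
Calr, 232 bases before the start, opposite strand: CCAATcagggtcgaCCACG
Canx, 230 bases before the start: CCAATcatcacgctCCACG
Dnajc3, 133 bases before the start: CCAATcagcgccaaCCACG

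The 250 bases before the start of Hspa5, Hsp90b1 and Calr show where these matches lie, again with the fixed ERSE letters in capitals and each written on the strand of its gene. A match on the opposite strand reads CGTGG before ATTGG here. In GRCr8 they span chr3:38452766-38453015 on the + strand for Hspa5, chr7:23012294-23012543 on the − strand for Hsp90b1 and chr19:40213117-40213366 on the + strand for Calr.
Hspa5: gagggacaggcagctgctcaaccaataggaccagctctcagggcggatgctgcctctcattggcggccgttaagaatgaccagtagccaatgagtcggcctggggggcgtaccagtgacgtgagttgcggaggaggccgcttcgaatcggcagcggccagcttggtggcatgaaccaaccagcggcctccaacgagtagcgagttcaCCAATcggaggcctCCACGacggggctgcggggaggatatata
Hsp90b1: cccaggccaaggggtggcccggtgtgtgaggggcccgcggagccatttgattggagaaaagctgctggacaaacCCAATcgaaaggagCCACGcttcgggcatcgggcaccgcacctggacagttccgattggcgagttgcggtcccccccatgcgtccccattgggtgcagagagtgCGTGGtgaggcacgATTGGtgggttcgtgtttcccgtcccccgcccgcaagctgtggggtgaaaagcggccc
Calr: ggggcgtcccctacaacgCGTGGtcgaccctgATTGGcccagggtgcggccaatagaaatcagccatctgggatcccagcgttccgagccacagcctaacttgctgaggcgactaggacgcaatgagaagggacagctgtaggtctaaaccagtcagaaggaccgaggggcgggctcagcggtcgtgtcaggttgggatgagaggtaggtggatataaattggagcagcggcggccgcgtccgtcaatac

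**Figure D1:**
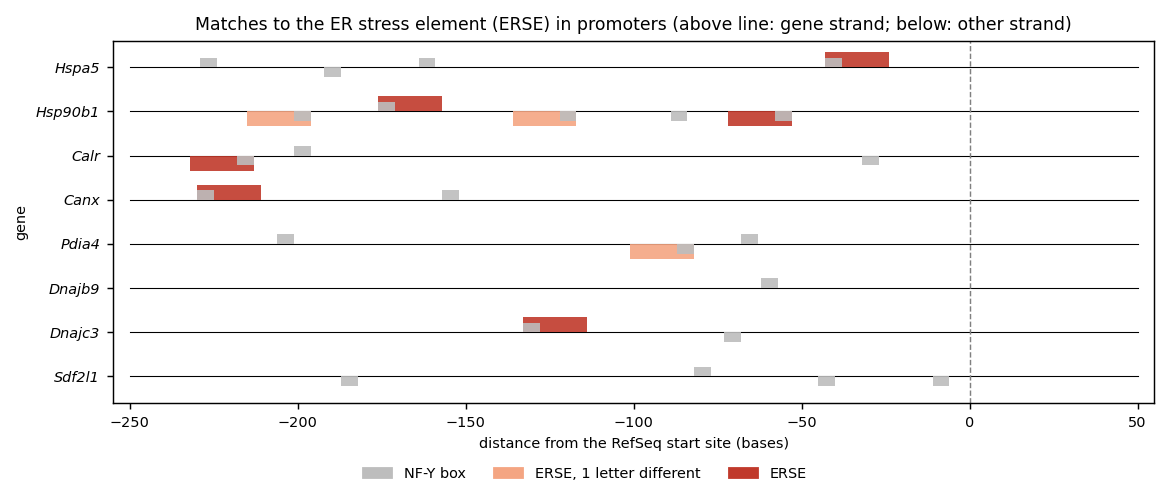
Matches to the ERSE (red), to the ERSE with 1 letter different (orange) and to its NF-Y box (grey) in the promoters of 8 genes, by distance in bases from the RefSeq start site. Boxes above a line are on the strand of the gene and boxes below it on the other strand. Exact ERSE matches lie in 5 promoters, and Hsp90b1 holds 2 of them.

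Allowing 1 of the 10 fixed letters to differ added Pdia4, at 101 bases before the start on the opposite strand, for 6 of 8 promoters against 1.5% of all. Hsp90b1 held a further pair of such near matches, at 215 and 136 bases before its start. Dnajb9 and Sdf2l1 held neither an exact nor a near match. Their log2 fold changes in PA versus Control, 2.05 and 1.84, were the largest of the 10. The 5 genes with an exact match ranged from 0.81 (Canx) to 1.73 (Hspa5). Whether the motif bears on these changes was not tested. The CCAAT box alone, which every ERSE contains, was in 8 of 8 promoters and in 37.7% of all. Neither the letters of ERSE-II (ATTGG, 1 base of any kind and CCACG, in 0.0546% of all promoters) nor those of the unfolded protein response element (UPRE, TGACGTGG, in 0.637%) were in these 8 windows, on either strand. Among the 15 tested genes with an exact ERSE, 10 were higher and 4 lower in PA than in Control, with a median log2 fold change of 0.68. Without the 5 chaperone genes, 5 of the remaining 10 were higher and 4 lower, with a median of 0.24, beside 28.1% higher and 27.2% lower among all tested genes with a promoter.

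The libraries held between 45559993 and 66730721 estimated counts in total. All 10 beta cell markers examined were present. Their summed level lay between 49227 and 49975 FPKM in Control, between 22398 and 22948 in PA and between 46851 and 52555 in PA + C3G, and its part in the changes below was not tested. The largest term of this sum was Ins1, at means of 26650, 13744 and 32002 FPKM in Control, PA and PA + C3G. The markers did not all follow the sum. In the same order Slc2a2 averaged 510, 103 and 172 FPKM, Ins2 13778, 1871 and 7008, and Nkx6-1 50.0, 52.1 and 76.0. Of the listed markers of acinar, duct, stromal and blood cells, the 6 in the table stayed below 1 FPKM in every library. The vessel marker Pecam1, the duct marker Cftr and the acinar markers Prss1, Amy2a3 and Ptf1a had no entry there, so they could not be checked. Of 5 markers of other islet cells, Gcg and Ghrl were in the table, and their sum lay between 2.68 and 31.9 FPKM. In each group, replicate 2 tended to be the lowest library for the chaperone genes. It was lowest for 9 of 10 in Control, 7 of 10 in PA and 10 of 10 in PA + C3G, against 39.0%, 38.8% and 34.2% of all tested genes. Counts given below without replicate 2 of any group were added after the data were seen.

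PA raised all 10 genes. At an adjusted p under 0.05 from edgeR's quasi-likelihood test (Benjamini-Hochberg over the 12958 tested genes, here called edgeR adjusted p), 10 of 10 were higher in PA than in Control, where 51.0% of all tested genes were called and 25.8% were called higher. All 10 were also called without replicate 2. The median log2 fold change was 1.16 over the 10 genes and 0.00 over all tested genes. Of the 10, 8 rose more than 2-fold, as did 3.30% of tested genes (unadjusted p under 0.05), and the exceptions were Canx and Pdia3. For every one of the 10, each PA library lay above each Control library, which held for 28.0% of tested genes.

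The general chaperones of the lumen are given first. Hspa5 (ENSRNOG00000018294, chromosome 3 from 13838304 to 13842762 in the authors' table, whose build is not given in the sources used here), which encodes BiP, was at 325, 313 and 369 FPKM in the Control libraries, 1093, 1086 and 1114 in PA, and 774, 764 and 784 in PA + C3G. The groups did not overlap, and the PA + C3G libraries lay between the others. From a mean of 336 ± 29.7 FPKM (SD, n = 3) in Control, Hspa5 rose to 1097 ± 14.8 (n = 3) in PA, a log2 fold change of 1.73 (SE 0.06, edgeR adjusted p = 2.63e-08).

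Hsp90b1 (ENSRNOG00000026963, chromosome 7 from 27226569 to 27240533), which encodes GRP94, was at 387, 317 and 380 FPKM in Control, 804, 781 and 796 in PA, and 667, 591 and 642 in PA + C3G. Its order of groups was that of Hspa5, again without overlap. The rise from 361 ± 38.6 FPKM in Control to 793 ± 11.7 in PA (SD, n = 3 each) was smaller than for Hspa5, with a log2 fold change of 1.16 (SE 0.07, edgeR adjusted p = 1.15e-06). An entry that the authors' table types as miRNA, within Hsp90b1 on the same strand, averaged 266 FPKM, and how the authors' counting shared reads between them is not stated.

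The BiP partners were far lower in level and included the largest rises. Dnajb9 (ENSRNOG00000004006, chromosome 6 from 64165913 to 64170151) encodes ERdj4, a J-domain protein that directs BiP to its clients and to IRE1. It was at 8.81, 9.88 and 9.61 FPKM in Control, 38.3, 37.1 and 40.0 in PA, and 26.5, 25.4 and 29.5 in PA + C3G. These groups were far apart relative to their spread, and PA + C3G again lay between. From 9.43 ± 0.557 FPKM to 38.5 ± 1.43 (SD, n = 3 each), its log2 fold change of 2.05 (SE 0.07, edgeR adjusted p = 2.75e-08) was the largest of the 10 and rank 62 of all tested genes by size of rise.

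Sdf2l1 (ENSRNOG00000001859, chromosome 11 from 88122271 to 88124513) encodes an ER-resident partner of J-domain proteins and BiP. Its values were 38.3, 29.8 and 33.2 FPKM in Control, 114, 115 and 126 in PA, and 99.9, 80.8 and 90.3 in PA + C3G. Every PA library was above every PA + C3G library, and those were above Control. The level went from 33.8 ± 4.29 to 119 ± 6.66 FPKM with PA (SD, n = 3 each), a log2 fold change of 1.84 (SE 0.10, edgeR adjusted p = 4.88e-07).

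Dnajc3 (ENSRNOG00000010352, chromosome 15 from 104186792 to 104226329) encodes p58IPK, a J-domain co-chaperone in the lumen that is known to restrain PERK. It was at 18.8, 15.6 and 19.9 FPKM in Control, 40.2, 40.0 and 36.7 in PA, and 41.0, 31.1 and 35.1 in PA + C3G. Control was lowest throughout, but the PA and PA + C3G libraries overlapped, with the highest of all in PA + C3G replicate 1. The mean rose from 18.1 ± 2.23 to 39.0 ± 1.95 FPKM with PA (SD, n = 3 each), with a log2 fold change of 1.13 (SE 0.11, edgeR adjusted p = 2.49e-05).

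Among the lectin chaperones, the estimated rise was larger for the soluble form than for the membrane form. Calr (ENSRNOG00000003029, chromosome 19 from 25956771 to 25961666), which encodes calreticulin, was at 354, 291 and 332 FPKM in Control, 840, 757 and 780 in PA, and 830, 702 and 764 in PA + C3G. PA and PA + C3G libraries were interleaved, well above Control. The log2 fold change from 326 ± 32.0 FPKM in Control to 792 ± 42.5 in PA (SD, n = 3 each) was 1.31 (SE 0.08, edgeR adjusted p = 1.05e-06).

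Canx (ENSRNOG00000003343, chromosome 10 from 35800942 to 35833861), which encodes the membrane-bound calnexin, was at 201, 186 and 207 FPKM in Control, 341, 345 and 340 in PA, and 297, 288 and 297 in PA + C3G. Its libraries agreed closely within each group, and no groups overlapped. With 198 ± 10.8 FPKM in Control and 342 ± 2.51 in PA (SD, n = 3 each), its rise was among the smallest of the 10, a log2 fold change of 0.81 (SE 0.04, edgeR adjusted p = 2.83e-07).

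The disulfide isomerases differed in level more than in response. Pdia3 (ENSRNOG00000015018, chromosome 3 from 113376983 to 113400707) encodes ERp57, which works with calreticulin and calnexin on glycoproteins. It was at 588, 502 and 573 FPKM in Control, 977, 932 and 933 in PA, and 1012, 908 and 974 in PA + C3G. By mean FPKM over all libraries it was the highest of the 10, at rank 37 of 20645 genes, and its PA and PA + C3G libraries overlapped. The rise from 554 ± 45.9 to 947 ± 25.9 FPKM (SD, n = 3 each) was a log2 fold change of 0.80 (SE 0.06, edgeR adjusted p = 4.59e-06). Ppip5k1, on the opposite strand, overlaps Pdia3 in the table at a mean of 17.7 FPKM, and whether counting used strand is not stated in the sources used here.

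Pdia6 (ENSRNOG00000050197, chromosome 6 from 42568220 to 42585652) encodes the isomerase P5, a partner of BiP. Its levels were 336, 276 and 335 FPKM in Control, 649, 598 and 626 in PA, and 698, 574 and 634 in PA + C3G. Both palmitate-treated groups overlapped fully and stood above Control. The log2 fold change with PA was 1.01 (SE 0.09, edgeR adjusted p = 9.97e-06), from 315 ± 34.5 to 624 ± 25.8 FPKM (SD, n = 3 each).

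Pdia4 (ENSRNOG00000006228, chromosome 4 from 77470636 to 77489535) encodes ERp72, an isomerase found in chaperone complexes with BiP. Its values were 124, 95.5 and 119 FPKM in Control, 257, 237 and 247 in PA, and 212, 196 and 206 in PA + C3G. No groups overlapped, with PA + C3G between the others. Pdia4 rose from 113 ± 15.1 to 247 ± 9.78 FPKM with PA (SD, n = 3 each), with a log2 fold change of 1.16 (SE 0.09, edgeR adjusted p = 3.20e-06).

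**Figure D2:**
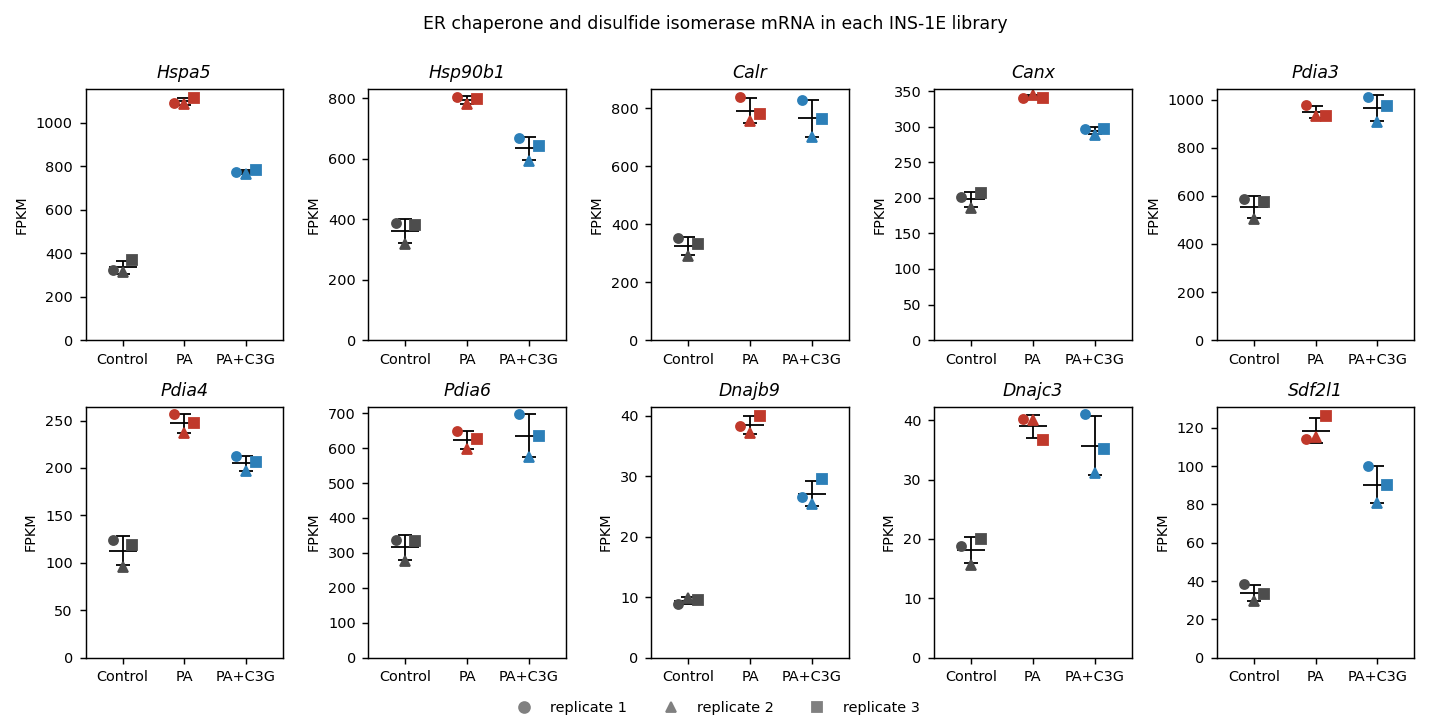
FPKM of the 10 genes in each of the 9 libraries, with the mean (long bar) and SD (whiskers) of each group of 3. Every axis starts at 0. All PA and PA + C3G libraries lie above all Control libraries, and PA + C3G lies wholly below PA for Hspa5, Hsp90b1, Canx, Pdia4, Dnajb9 and Sdf2l1.

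With C3G added to PA, 5 of the 10 genes fell and the other 5 did not pass the test. In PA + C3G versus PA, those lower at an edgeR adjusted p under 0.05 were Hspa5, Dnajb9, Sdf2l1, Hsp90b1 and Canx, and none was higher. The differences between genes were compared only as ratios to Canx, given further on. Without replicate 2 of every group 5 were lower as well, with Pdia4 in place of Sdf2l1. Of all tested genes, 21.2% were called and 10.2% were called lower. The median log2 fold change was −0.21 over the 10 genes and 0.00 over all tested genes. No fall reached 2-fold, whereas 0.432% of tested genes fell that far. All PA + C3G libraries lay below all PA libraries for 6 of the 10 genes, the 5 called and Pdia4, against 24.0% of tested genes. The PA libraries enter this comparison and the one with Control, so the direction of the one is not independent of the other.

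Hspa5 fell to 774 ± 9.60 FPKM (SD, n = 3), a log2 fold change of −0.47 (SE 0.05, edgeR adjusted p = 0.000555). Dnajb9 fell to 27.1 ± 2.11 FPKM (SD, n = 3), also by 0.47 on the log2 scale (SE 0.06, edgeR adjusted p = 0.00122). These were the largest falls among the 10 genes. Canx fell less, to 294 ± 4.89 FPKM (SD, n = 3), with a log2 fold change of −0.18 (SE 0.04, edgeR adjusted p = 0.0129). Hspa5, Dnajb9 and Canx were called under each of the 20 alternative fits.

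Sdf2l1 and Hsp90b1 were less secure. Sdf2l1 was at 90.4 ± 9.56 FPKM (SD, n = 3), with a log2 fold change of −0.35 (SE 0.10, edgeR adjusted p = 0.0295). Hsp90b1 was at 633 ± 38.6 FPKM (SD, n = 3), with a log2 fold change of −0.29 (SE 0.07, edgeR adjusted p = 0.0203). Both calls were lost, leaving 3 of the 10 genes called, on leaving out PA replicate 1, PA replicate 3, PA + C3G replicate 2 or PA + C3G replicate 3. The edgeR adjusted p then lay between 0.0520 and 0.103 for Sdf2l1 and between 0.0527 and 0.0624 for Hsp90b1. Sdf2l1 was lost as well without PA replicate 2 (edgeR adjusted p = 0.0593) and without replicate 2 of every group (0.0711).

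For the remaining 5 genes the test gave no call. Pdia4, at 205 ± 8.02 FPKM (SD, n = 3), had a log2 fold change of −0.23 (95% interval −0.42 to −0.04, edgeR adjusted p = 0.0813) and was called in 6 of the 20 alternatives, among them DESeq2 (adjusted p = 0.0146) and the fit without replicate 2 (edgeR adjusted p = 0.0168). Dnajc3 was at 35.7 ± 5.01 FPKM (SD, n = 3), with a log2 fold change of −0.09 (95% interval −0.34 to 0.16, edgeR adjusted p = 0.629). Calr was at 766 ± 64.0 FPKM (SD, n = 3), with −0.01 (95% interval −0.19 to 0.17, edgeR adjusted p = 0.932). For the isomerases Pdia3 and Pdia6 the estimates were on the other side of 0. Pdia3 was at 965 ± 52.9 FPKM (SD, n = 3), with a log2 fold change of 0.06 (95% interval −0.08 to 0.20, edgeR adjusted p = 0.520). Pdia6 was at 635 ± 62.1 FPKM (SD, n = 3), with 0.06 (95% interval −0.13 to 0.26, edgeR adjusted p = 0.669). None of Calr, Dnajc3, Pdia3 and Pdia6 was called in any of the 20 alternatives, though for each the sign turned in at least 1 of them. A fall as large as that of Hspa5 lies outside all 5 of these intervals.

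**Figure D3:**
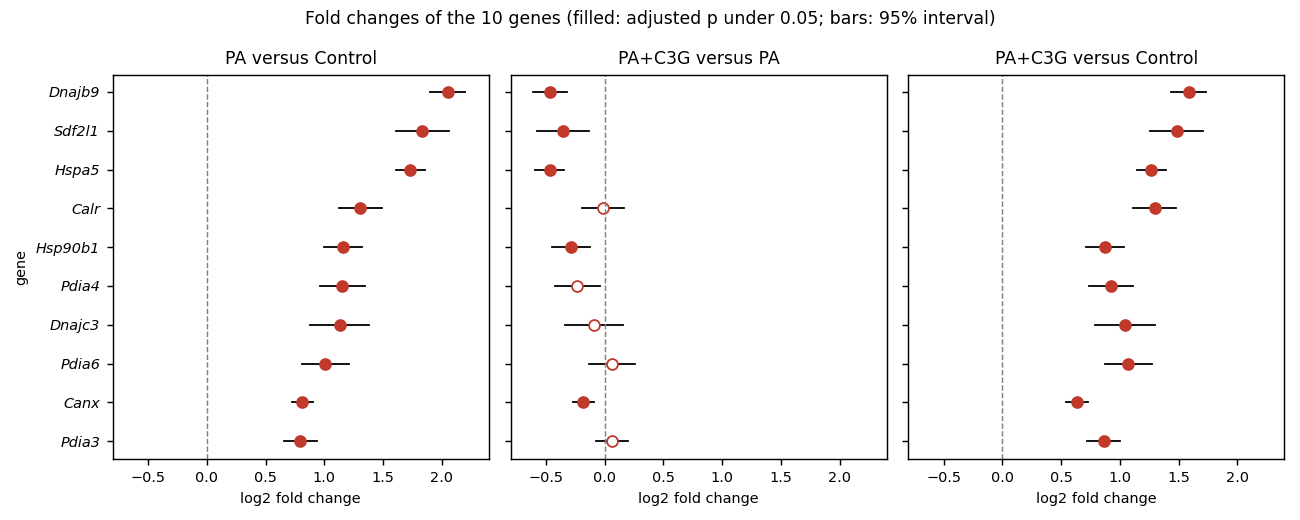
Log2 fold change of each gene in the 3 comparisons (edgeR), with the 95% interval as a bar. Filled points passed an adjusted p under 0.05. All points are filled and right of 0 against Control, while in PA + C3G versus PA 5 are filled and left of 0.

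Compared with Control, all 10 genes were still higher in PA + C3G (edgeR adjusted p between 2.56e-07 and 7.42e-05), where 36.9% of tested genes were called and 19.0% were called higher. The same 10 were called without replicate 2. Their median log2 fold change was 1.06, against 0.01 over all tested genes, and 6 of them were more than 2-fold higher, as were 1.86% of tested genes. Dnajb9 was highest in this respect, with a log2 fold change of 1.59, followed by Sdf2l1 with 1.48, Calr with 1.29 and Hspa5 with 1.27. Canx had the smallest difference, 0.63. Each PA + C3G library lay above each Control library for all 10 genes and for 19.2% of tested genes.

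Summed over the 10 genes, the level was 2381, 2035 and 2377 FPKM in the Control libraries, 5152, 4927 and 5039 in PA, and 4658, 4161 and 4456 in PA + C3G. The groups did not overlap. In PA the sum was 2.23 times that of Control, and in PA + C3G it was 0.878 times that of PA and 1.95 times that of Control. An exact two-sided permutation test gave p = 0.1 for each, which is the smallest that 3 libraries against 3 allow. As a share of all FPKM in a library, the 10 genes took 0.423% ± 0.0410 in Control, 0.978% ± 0.0237 in PA and 0.828% ± 0.0411 in PA + C3G (SD, n = 3 each).

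The make-up of this pool differed between groups, here as a description with SD and n = 3. Hspa5 supplied 14.9% ± 1.05 of the summed FPKM in Control, 21.8% ± 0.502 in PA and 17.5% ± 0.878 in PA + C3G. Pdia3, the largest contributor in Control with 24.5% ± 0.339, supplied 18.8% ± 0.246 in PA and 21.8% ± 0.0671 in PA + C3G. The share of Calr was 14.4% ± 0.460 in Control, 15.7% ± 0.505 in PA and 17.3% ± 0.487 in PA + C3G. Canx had 8.76% ± 0.344, 6.79% ± 0.196 and 6.65% ± 0.279 in the same order.

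To set the ER chaperones against their relatives in other compartments, the log2 ratio of their FPKM values was taken within each library. Hspa8, the constitutive cytosolic HSP70, was at 200 ± 16.1 FPKM in Control, 226 ± 11.4 in PA and 161 ± 3.11 in PA + C3G (SD, n = 3 each). The log2 ratio of Hspa5 to Hspa8 was 0.79, 0.69 and 0.76 in the Control libraries, 2.35, 2.20 and 2.30 in PA, and 2.25, 2.28 and 2.28 in PA + C3G. It rose by 1.54 from Control to PA without overlap, but differed by only −0.01 between PA and PA + C3G, whose libraries overlapped (exact permutation p = 0.8). Hspa8 itself fell on adding C3G to PA, with a log2 fold change of −0.45 (SE 0.06, edgeR adjusted p = 0.00108).

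Against Hspa9, the mitochondrial HSP70, the log2 ratio of Hspa5 was 1.39 higher in PA than in Control and 0.27 lower once C3G was added to PA, with no overlap in either case. Hsp90b1 gave ratios that rose with PA against all 3 of its relatives, by 1.21 against cytosolic Hsp90ab1, by 1.92 against cytosolic Hsp90aa1 and by 1.43 against mitochondrial Trap1. Hsp90aa1 fell with PA, by 0.75 on the log2 scale (SE 0.05, edgeR adjusted p = 1.88e-06), and Hsp90ab1 did not pass the test (log2 fold change −0.05, edgeR adjusted p = 0.266). From PA to PA + C3G the Hsp90b1 ratio changed by −0.49 against Hsp90aa1 and −0.33 against Trap1, without overlap, and by −0.08 against Hsp90ab1, with overlap (exact permutation p = 0.4). Between these groups the relatives moved as well. Mean FPKM went from 90.2 to 101 for Hsp90aa1, from 847 to 714 for Hsp90ab1 and from 31.5 to 31.6 for Trap1. For Hspa9 it went from 216 to 184. Of the 5 relatives outside the ER, 3 were lower and 1 higher at an edgeR adjusted p under 0.05. Their median log2 fold change was −0.19. Among all tested genes 10.2% were called lower and 11.1% higher. Every ratio whose groups did not overlap had an exact permutation p of 0.1, the smallest possible here, and an adjusted p of 0.115 over the 15 comparisons of this kind, so none passed 0.05 in a design of this size.

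**Figure D4:**
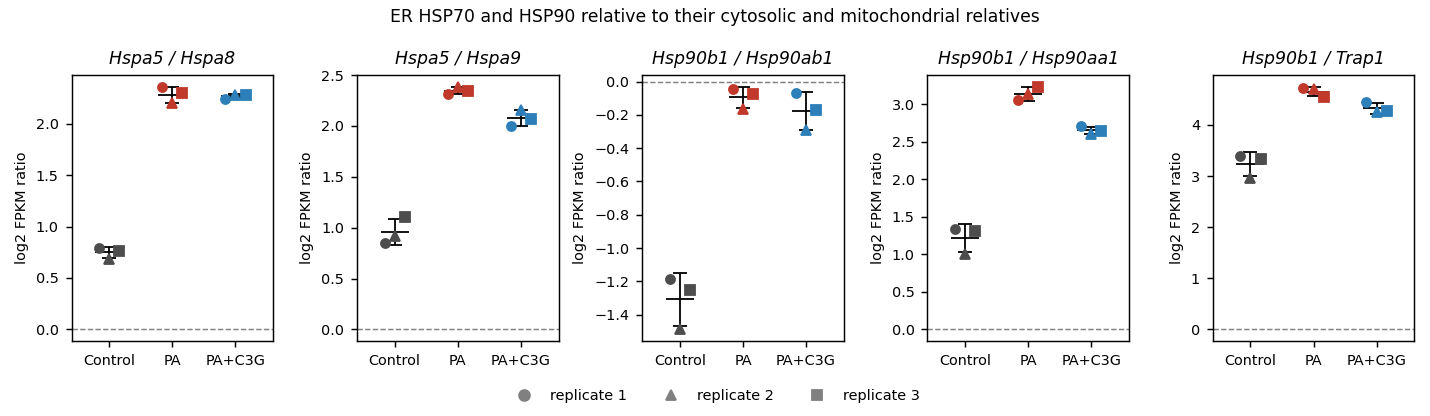
Log2 ratio of FPKM within each library for Hspa5 over its cytosolic (Hspa8) and mitochondrial (Hspa9) relatives and for Hsp90b1 over Hsp90ab1, Hsp90aa1 (cytosolic) and Trap1 (mitochondrial), with group mean and SD. The dashed line marks a ratio of 0. All 5 ratios rise from Control to PA, and those to Hspa8 and Hsp90ab1 overlap between PA and PA + C3G.

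Ratios to Canx in the same library describe how the estimates for the 10 genes differed among themselves. From Control to PA, the log2 ratio to Canx rose for 8 of the other 9 genes without overlap, by 1.24 for Dnajb9, 1.03 for Sdf2l1, 0.92 for Hspa5, 0.50 for Calr and between 0.20 and 0.35 for the other 4. Pdia3 was the exception, with a difference of −0.01 (exact permutation p = 0.7). Canx and Pdia3 had the smallest rises of the 10 with PA, log2 fold changes of 0.81 and 0.80. This count therefore follows largely from the choice of denominator. The share of all tested genes whose ratio to Canx rose without overlap was not computed. From PA to PA + C3G, the ratio to Canx was lower without overlap for Hspa5 (−0.29), Dnajb9 (−0.29) and Hsp90b1 (−0.11), and higher without overlap for Pdia3 (0.24) and Pdia6 (0.24). For Calr (0.17), Dnajc3 (0.08), Pdia4 (−0.05) and Sdf2l1 (−0.18) the libraries overlapped. The Dnajc3 value was −0.01 without PA + C3G replicate 1, and that of Sdf2l1 was −0.11 without PA + C3G replicate 2. All ratios without overlap had an exact permutation p of 0.1 and an adjusted p of 0.123 over 27 comparisons, so none passed 0.05. The denominator moved too. From PA to PA + C3G, mean FPKM went from 342 to 294 for Canx, from 947 to 965 for Pdia3 and from 624 to 635 for Pdia6.

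The other genes taken here as ER folding genes, from lists written by function, gave a broader view. They held 63 genes, of which 53 were in the table and 44 passed the filter. Of these 44, 32 were higher and 5 lower in PA than in Control at an edgeR adjusted p under 0.05, with a median log2 fold change of 0.56, beside 25.8% higher, 25.2% lower and a median of 0.00 over all tested genes. Among J-domain co-chaperones and nucleotide exchange factors, 7 of 9 were higher and none lower. The largest rise there was that of Hyou1 (GRP170, an exchange factor for BiP), from 73.6 ± 9.16 to 201 ± 3.11 FPKM (SD, n = 3 each), with a log2 fold change of 1.47 (SE 0.08, edgeR adjusted p = 3.19e-07). Dnajb11 (ERdj3) rose by 0.83 and Sil1, a further exchange factor, by 0.67 on the same scale.

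Of 11 other disulfide isomerases, 9 were higher and 2 lower with PA. Pdia5 had the largest log2 fold change, 1.73 (SE 0.23, edgeR adjusted p = 0.00017), at a mean of only 1.77 FPKM in Control. Txndc11 rose by 1.37, and P4hb, the founding member of the family, rose by 0.88 from 341 ± 29.3 FPKM (SD, n = 3). The oxidases and peroxidases that feed or drain these enzymes had 2 of 7 higher and 2 lower, close to the 25.8% higher and 25.2% lower among all tested genes. Ero1b, the ER oxidase typical of pancreatic endocrine cells, fell from 81.2 ± 4.17 to 49.9 ± 2.84 FPKM (SD, n = 3 each), with a log2 fold change of −0.68 (SE 0.08, edgeR adjusted p = 0.000102). Qsox1 rose by 0.58 and Qsox2 by 0.35.

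All 5 tested enzymes and lectins of the calnexin cycle were higher with PA, among them Uggt1, which marks misfolded glycoproteins for another round (log2 fold change 0.88), Prkcsh, a subunit of glucosidase II (0.65), and Calr3 (0.64, at no more than 3.06 FPKM in any PA library). Of 3 ER prolyl isomerases, Fkbp2 and Ppib rose, by 0.92 and 0.73, and Fkbp11 fell by 0.13. Other ER-resident folding factors were higher in 7 of 9 cases, led by Manf (log2 fold change 1.64), Creld2 (1.52) and Hspa13 (0.90). Of 11 genes listed as regulators of these promoters, some acting only through other factors, 4 were higher and 4 lower. The median log2 fold change of these 11 was 0.05. Beside the counts of this paragraph stand 25.8% called higher and 25.2% called lower among all tested genes. Ern1 (IRE1), Atf6, Atf6b and Xbp1 rose, by 1.29, 1.18, 0.63 and 0.61, and the NF-Y subunits Nfya, Nfyb and Nfyc and the factor Yy1 fell.

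With C3G added to PA, 8 of the same 44 folding genes were lower, 8 higher and 28 not called, with a median log2 fold change of −0.06, beside 10.2% lower and 11.1% higher among all tested genes. This balance moved to 18 lower and 5 higher when all libraries were set to the same FPKM sum (TPM scaling). The lower ones included Creld2 (−0.72, edgeR adjusted p = 0.000454), Manf (−0.51, edgeR adjusted p = 0.00174) and Hyou1 (−0.47, edgeR adjusted p = 0.00253). In the other direction, the largest estimates were 0.34 among oxidases and peroxidases, 0.33 among other disulfide isomerases and 0.31 among other ER-resident folding factors. None of the 5 calnexin cycle genes was called, against 2 lower with TPM scaling. Oxidases and peroxidases were higher in 3 of 7 cases and lower in none, against 2 higher and 1 lower with TPM scaling, and Ero1b was at 48.6 ± 5.85 FPKM (SD, n = 3) with a log2 fold change of 0.00 (SE 0.08). Of the regulators, Ern1 and Atf6 each fell by 0.61 and Atf6b by 0.26, while Xbp1 was not called (0.15, edgeR adjusted p = 0.0611). Relative to Control, 32 of the 44 were higher in PA + C3G and 1 was lower, beside 19.0% and 17.9% of all tested genes.

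**Figure D5:**
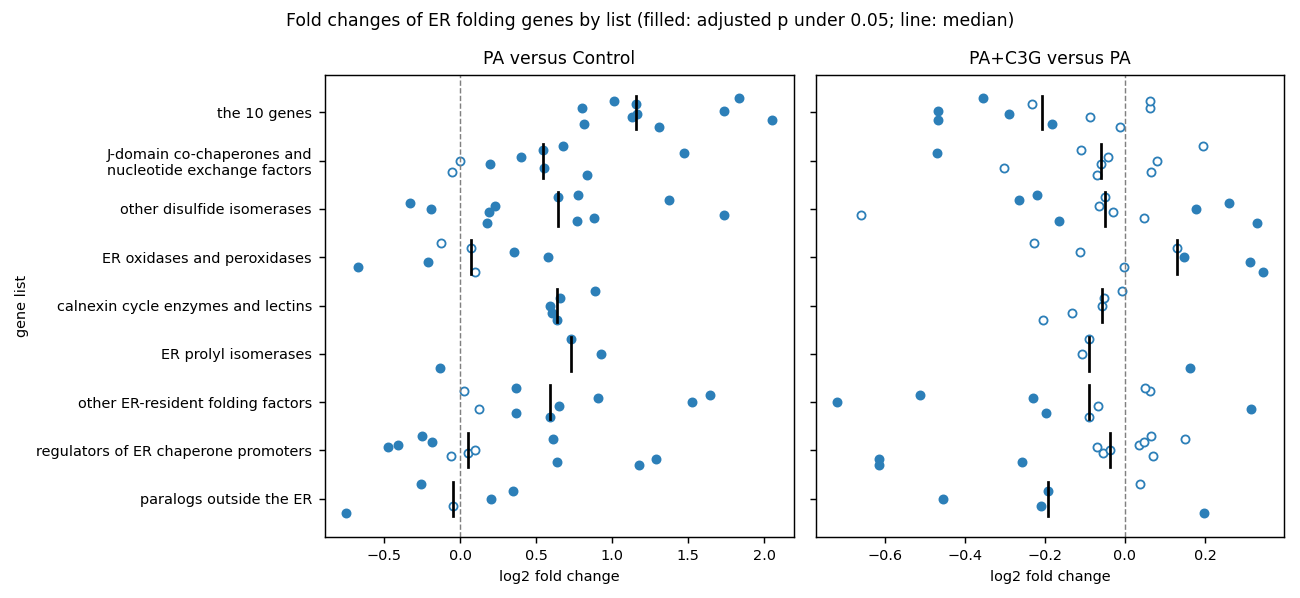
Log2 fold changes (edgeR) of the 10 genes and of the genes of each list, with 1 point a gene, filled where the adjusted p was under 0.05, and the list median as a vertical bar. Points within a list are offset only to keep them apart. The 10 genes have the highest list median in PA versus Control, 1.16, but they and all lists were chosen with earlier results of these data known.

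Across the 9 libraries, the tested genes outside the 10 whose log2(FPKM + 1) was most like the mean profile of the 10 were Rpn1 (Pearson's r 0.999), Surf4 (0.998), Tmed10 (0.998), Gucy2c (0.996) and Dusp4 (0.996). These r values describe 9 libraries in 3 groups, so the differences between groups set most of them, and no test was made. Rpn1, a subunit of the oligosaccharyltransferase, averaged 362 FPKM in Control, 536 in PA and 499 in PA + C3G. Dusp4, a phosphatase of MAP kinases, was at 8.56, 36.0 and 30.2 FPKM in the same order. The 10 genes themselves had r between 0.981 and 0.995 with their own mean.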

How the data were processed

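The processed table of 9 INS-1E libraries, 3 per group, was analysed. The sample labels name control, palmitic acid and C3G treatment. That the C3G group also received palmitic acid comes from the series' design text and the study's methods, and the doses come from the methods. The authors sequenced polyadenylated RNA in paired-end mode. The submitters' processing notes name cutadapt 1.9, HISAT2 2.0.4 and StringTie 1.3.4d, together with DESeq2 and edgeR. The genome build is not given in the sources used here. The authors deposited estimated counts per gene, without normalization, and FPKM, which also takes transcript length and library depth into account. Low counts pile up at multiples of 4 (2.44 times as many values at 4 as the mean of those at 3 and 5), so counts divided by 4 were tried. Within groups, libraries correlated at 0.985 to 0.989 across genes. The methods state replicate samples for each group and biological triplicates in general, and the labels do not say whether these were separate cultures, so p-values measure the spread between these libraries.

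The 12958 genes whose FPKM averaged 1 or more over all libraries were tested on the estimated counts with edgeR 4.0.16 in R 4.3.3, with TMM normalization, all 9 libraries in 1 fit, the quasi-likelihood test and Benjamini-Hochberg adjustment over all tested genes. Calls were made at an adjusted p under 0.05, and folds above 2 at an unadjusted p under 0.05 were counted beside them. SE is the log2 fold change over the root of F. Ratios and sums were compared by exact two-sided permutation tests. The test was repeated with DESeq2 1.42.0, with size factors by median ratio, after setting all libraries to 1 FPKM sum (TPM scaling), without the filter or with a minimum of 5, on the compared groups alone, with a block for replicate number, with the counts divided by 4, with limma 3.58.1 on log2(FPKM + 1) and log2(FPKM + 0.1), and with each library left out. Added after the data were seen were the fit with replicate 2 left out of every group, the alternatives for the other folding genes and the ratios without each library. The procedure was tested on simulated data.

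The 10 genes and all lists were chosen with earlier results of these data known. Named besides the 10 are 5 relatives outside the ER, from each list up to 3 called genes with the largest log2 fold change in PA versus Control, and the 5 genes most like the 10 in profile. Others were named after their values were seen (Xbp1, Nfya, Nfyb, Nfyc, Yy1 and genes that overlap others).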

Additional observations from a re-analysis of the deposited data

How the results depend on the processing

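Over 20 alternatives, the 30 fold changes of the 10 genes gave 600 values, of which 576 kept their direction and their side of the threshold. All 20 alternatives kept 10 of 10 genes called in PA versus Control and in PA + C3G versus Control. In PA + C3G versus PA, 6 values passed the threshold (Pdia4), 10 no longer did (Hsp90b1 and Sdf2l1), and 8 changed sign, none of them called. With TPM scaling the log2 fold change was −0.0272 for Pdia3 and −0.0289 for Pdia6. On leaving out 1 library, or replicate 2 of every group, it lay between −0.0785 and 0.0438 for Calr, between −0.0145 and 0.128 for Pdia6 and between −0.204 and 0.0266 for Dnajc3. With 1 library left out, between 3 and 6 of the 10 genes were called in PA + C3G versus PA, and between 1718 (without PA replicate 3) and 2838 of all tested genes, against 2752 with all libraries. Without replicate 2, 1934 genes were called there.

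TPM scaling gave 3323 called genes in PA + C3G versus PA with 775 higher and 2548 lower, a 23.3% share of higher calls against 52.2%, and a median over all genes of −0.09. With limma on log2(FPKM + 1) the share was 39.4%. For PA + C3G versus Control it was 38.0% with TPM scaling and 37.4% with limma, against 51.5%. The summed level in PA was 2.31 times Control with TPM scaling and between 2.12 and 2.28 times on leaving out 1 library, against 2.23. The cause of these shifts was not tested. Of the other folding genes, 44 of them tested unless the filter was changed, between 34 and 39 were called in PA versus Control, between 12 and 23 in PA + C3G versus PA and between 29 and 34 in PA + C3G versus Control.

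The replicate block gave 6843, 3118 and 5058 called genes and 10, 6 and 10 of the 10 genes in PA versus Control, PA + C3G versus PA and PA + C3G versus Control. Deviations from group means correlated between same-numbered libraries at −0.0690 to 0.149, not above 0.1 in every pair, so the numbers were not taken as pairs. In PA + C3G versus PA each library did correlate best with its own number, at 0.149, 0.0857 and 0.0431 for replicates 1, 2 and 3. In the comparisons with Control not every library did. These correlations were over all tested genes, whereas replicate 2 was lowest for 9, 7 and 10 of the 10 genes in Control, PA and PA + C3G.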
